A study of Mus musculus with 6 samples.

Results

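The genes described here encode the enzymes that attach ubiquitin to proteins, the largest family of enzymes that take it off, and the proteasome, the particle that degrades the tagged proteins. They are the rows of the count table whose symbol begins with Ube2, with Usp and a digit, or with Psm, a letter from a to g and a digit, with Psmb8, Psmb9 and Usp18 left out. This rule takes 130 of the 19251 genes in the table, of which 49 are named as proteasome genes, 47 as Usp genes and 34 as Ube2 genes. All 130 passed the filter on low counts and were tested. The symbol also takes in 6 genes of another kind, which stay in the counts. Psmc3ip encodes a recombination factor, Psme3ip1 a partner of the Psme3 protein, Usp6nl a GTPase-activating protein and Ube2cbp a ligase that binds an E2, while Ube2d-ps and Ube2n-ps1 are named as pseudogenes. Without these 6 the class medians given further on were 0.078, 0.047 and 0.042 on the log2 scale for proteasome, Usp and Ube2 genes.

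The study set intermittent fasting against feeding ad libitum, with 3 libraries of polyadenylated RNA per diet. The libraries were made from substantia nigra of C57BL/6 mice, and every mouse of both diets carried rAAV-A53T-aSynuclein, a viral vector with the A53T form of alpha-synuclein, so no group without the vector enters the comparison. Fasting mice went without food for 24 hours on each of 3 days a week, from 2 hours before lights off. Ad libitum mice had food at all times and were moved between cages at the same hours, and both diets began 2 weeks after surgery and lasted 10 weeks. The promoter that drives the vector, the side injected, the age and sex of the mice and how long after the last fast tissue was taken are not stated in the labels. Whether each library came from its own animal is not stated either, so p-values measure only the spread between these libraries.

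Ubiquitin is a small protein that is joined to lysines of other proteins in 3 steps, by an activating enzyme (E1), a conjugating enzyme (E2, the Ube2 proteins) and a ligase (E3) that picks the target. Usp proteins are cysteine proteases that cut ubiquitin off again. The 26S proteasome is made of the 20S core, a barrel of alpha and beta rings with the cutting sites inside, and the 19S particle, whose ATPases unfold the target and whose lid removes its ubiquitin. Alpha-synuclein can be degraded by the proteasome and by lysosomes, and Lewy bodies stain for ubiquitin, which is why this system is studied in the substantia nigra.

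Total estimated counts ran from 42990234 to 46594066 per fasting library and from 46337950 to 48179706 per ad libitum library. Dopamine neuron markers were present in every library. Th, the first enzyme of dopamine synthesis, was at 105, 189 and 93.7 CPM (counts scaled to a common library size) in fasting libraries 1, 2 and 3, and at 86.3, 92.6 and 236 CPM in ad libitum libraries 1, 2 and 3. Ad libitum library 2 stood apart by Chat, a marker of cholinergic neurons, which was at 22.9 CPM there, against 0.341, 0.393 and 1.24 CPM in the fasting libraries and 0.656 and 2.14 CPM in ad libitum libraries 1 and 3. The 5 measured hypothalamic neuron genes summed to 513 CPM in ad libitum library 2. Their sums were 108, 145 and 130 CPM in fasting libraries 1, 2 and 3, and 25.7 and 4.08 CPM in ad libitum libraries 1 and 3. Of these 5 genes, 3 were highest in ad libitum library 2 and 2 in fasting library 1. The lists of microglia and oligodendrocyte markers were lower under fasting in all of their measured members. The summed level of 15 microglia markers was 409 to 420 CPM in fasting libraries and 537 to 712 CPM in ad libitum libraries, and that of 14 oligodendrocyte markers 10400 to 13000 CPM and 14700 to 20100 CPM. The 10 neuron markers summed to 6910 to 7360 CPM in fasting libraries and 5890 to 7860 CPM in ad libitum libraries, so the sums overlapped. By gene, 7 of the 10 had a log2 fold change, fasting minus ad libitum, above 0. Their median was 0.096, and none passed the test. No gene of the microglia, oligodendrocyte and neuron lists was at 0 in a group mean. Of the other lists, 8 of 10 astrocyte, 7 of 8 endothelial and 5 of 5 red blood cell markers were below 0, none past the test. Ad libitum library 3 was the highest of the 6 in all 5 red blood cell genes, which summed to 1740 CPM there, against 254 to 657 CPM in fasting libraries and 430 and 632 CPM in ad libitum libraries 1 and 2. It was also the highest in 7 of 9 dopamine neuron genes. In tissue RNA, fewer cells of a type and less RNA per cell cannot be told apart, and the part of cell type shares in the values that follow was not tested.

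None of the 130 genes passed edgeR's quasi-likelihood test with Benjamini-Hochberg adjustment over all 19109 genes tested, of which 0.497% passed (0.147% higher and 0.351% lower under fasting). The smallest adjusted p among them was 0.0685, for Usp31. At an unadjusted p below 0.05 there were 10 of 49 proteasome genes, 13 of 47 Usp genes and 3 of 34 Ube2 genes, or 20.4%, 27.7% and 8.82%, against 20.4% of all genes tested. Of these members 9, 9 and 1 were higher and 1, 4 and 2 lower, where 8.74% of all genes were higher and 11.6% lower. The proteasome share equals that of all genes, so it is not a result about these genes, and the Ube2 share is lower. DESeq2, a second tool, called 6 of the 130 (Psmd5, Usp22, Usp34 and Usp5 higher, Usp25 and Usp31 lower) where it called 7.40% of the 18842 genes it tested, 2.90% higher and 4.51% lower. limma-voom called 0.

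What the classes shared was small size and, for most members, a positive sign. Of all genes tested 49.1%, and of those with a mean of at least 10 CPM 52.2%, had a log2 fold change above 0 (also called log2 difference here, fasting minus ad libitum), and so did 40 of 49 proteasome genes, 33 of 47 Usp genes and 27 of 34 Ube2 genes. The median log2 fold change was 0.077 for proteasome genes, 0.041 for Usp genes and 0.042 for Ube2 genes, against -0.0050 for all genes tested. These medians correspond to 5.50%, 2.88% and 2.96% more RNA. The SE of a single member had a median of 0.060 in proteasome genes, 0.066 in Usp genes and 0.065 in Ube2 genes, and says nothing of the error of a class median. Differences under 0.2 in size held for 46 of 49 proteasome genes, 35 of 47 Usp genes and 31 of 34 Ube2 genes, against 11289 of 19109 genes tested, and 4 of the 130 differed by 1.5-fold or more (Psme2b, Usp43, Usp51 and Ube2l6, each at a mean under 10 CPM). Among all genes 10.7% differed that much. The shares by size were not taken among genes of like level, so small size is not shown to be particular to these classes. The groups did not overlap in 27.5% of all genes, with 12.5% higher and 15.0% lower under fasting. Among genes with a mean of at least 10 CPM these shares were 14.7% and 16.0%. Among proteasome genes 16 were higher and 2 lower without overlap, among Usp genes 11 and 5, and among Ube2 genes 3 and 2.

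**Figure D1:**
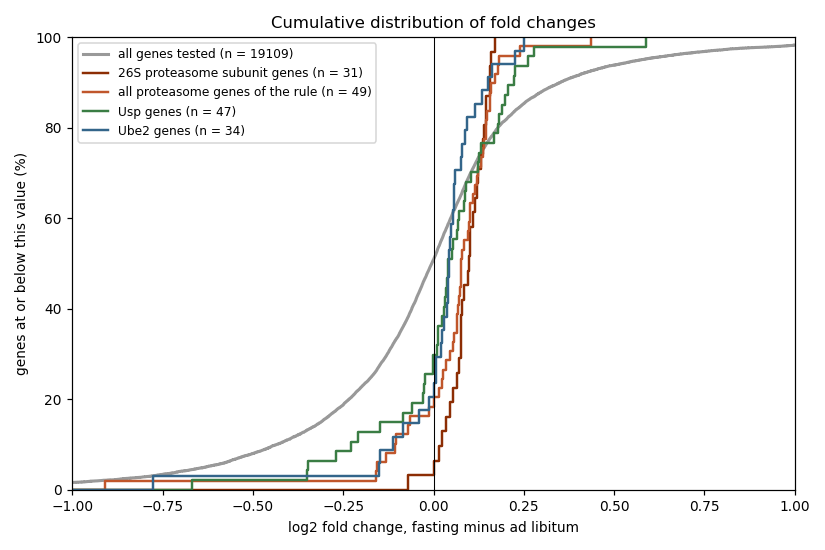
Share of genes (vertical axis, %) with a log2 fold change, fasting minus ad libitum, at or below the value on the horizontal axis, for all 19109 genes tested and for each class, drawn between -1 and 1. The class curves are steeper than that of all genes and cross the middle to the right of 0. Their medians are 0.077, 0.041 and 0.042 for proteasome, Usp and Ube2 genes, and 0.099 for the 31 genes of the rule for standard 26S subunits.

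Summed over its members, the proteasome class was at 2970, 3010 and 2900 CPM in fasting libraries 1, 2 and 3, and at 2880, 2730 and 2760 CPM in ad libitum libraries 1, 2 and 3. The lowest fasting sum lay close above the highest ad libitum sum, in ad libitum library 1. The Usp class was at 4260, 4190 and 4170 CPM under fasting and 4040, 4000 and 3970 CPM ad libitum. Here the groups were further apart. The Ube2 class was at 2890, 2860 and 2810 CPM under fasting and 2880, 2640 and 2800 CPM ad libitum, and the groups overlapped through ad libitum library 1. Ad libitum library 2 was the lowest of the 6 in 20 of 34 Ube2 genes. It had high Chat, the highest oligodendrocyte sum (20100 CPM) and the lowest neuron sum (5890 CPM), and their part was not tested. Without this library the Ube2 median shrank to 0.0019 with 18 of 34 genes above 0. Without that library 36 of 49 proteasome genes and 29 of 47 Usp genes were above 0, with medians of 0.077 and 0.016. Without ad libitum library 1 the medians were 0.080 for Ube2, 0.072 for Usp and 0.11 for proteasome genes, and without fasting library 1 they were 0.026, 0.028 and 0.077.

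**Figure D2:**
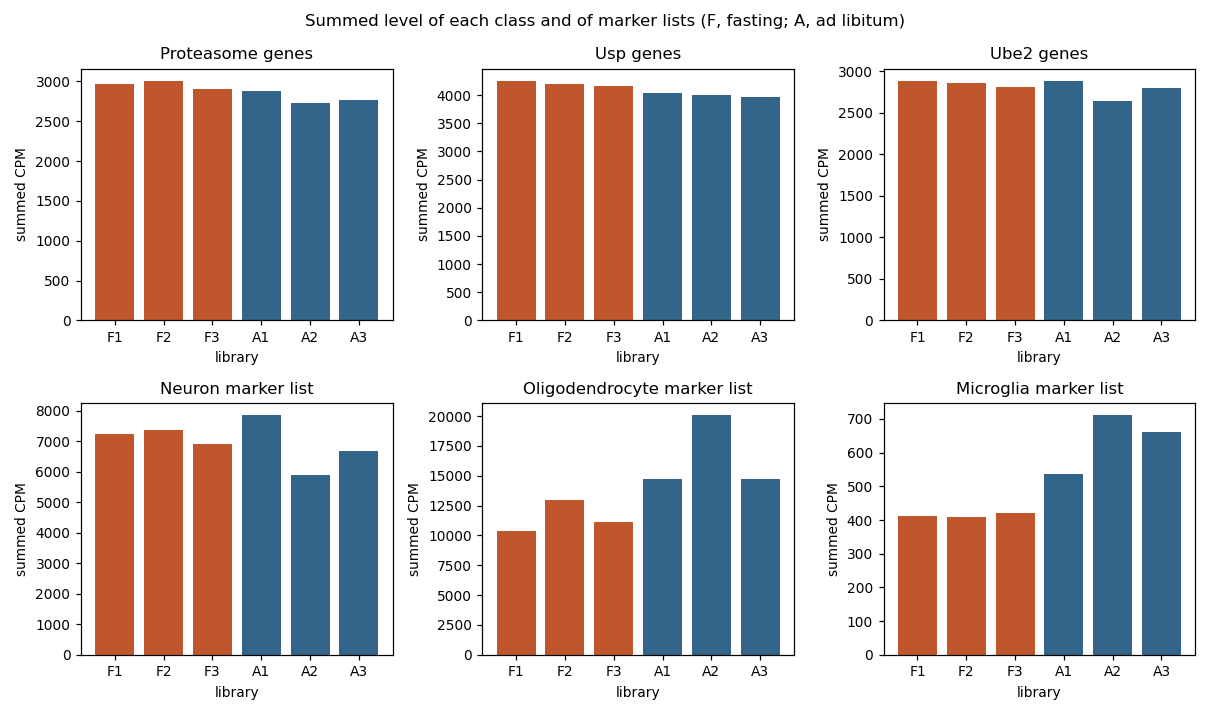
Summed CPM (vertical axes, from 0) in each library (F1 to F3, fasting; A1 to A3, ad libitum) for the 3 classes in the upper row and for neuron, oligodendrocyte and microglia marker lists in the lower row. The class sums differ by little between diets, 2900 to 3010 CPM under fasting and 2730 to 2880 CPM ad libitum for proteasome genes, while the microglia and oligodendrocyte sums of the fasting libraries lie well below those of the ad libitum libraries.

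Among proteasome genes the positive sign ran through the parts of the particle itself. Of the 31 genes of the rule for standard 26S subunits, 30 had a log2 fold change above 0, with a median of 0.099. They ran from -0.071 (Psmc5) to 0.17 (Psmd1). Psma8, Psmb10 and Psmb11, which replace standard subunits in testis, immune cells and thymus, are not among the 31. Nor are the 19S subunit genes Adrm1 (0.18) and Sem1 (-0.04), whose symbols the rule does not take. Among the 31, all 14 genes of the core were above 0 with a median of 0.11, and 16 of 17 genes of the 19S particle with a median of 0.086. None passed the test, and 7 of the 31 (22.6%) had an unadjusted p below 0.05, near the 20.4% of all genes. That count was 4 with the replicate block, 0, 0 and 2 without fasting libraries 1, 2 and 3, and 8, 3 and 1 without ad libitum libraries 1, 2 and 3. Over all genes tested the count was 3890 in the main fit and 3921 with the replicate block. It was 2452, 3353 and 2495 without fasting libraries 1, 2 and 3, and 5267, 3550 and 3200 without ad libitum libraries 1, 2 and 3. By library, the median deviation of these 31 genes from their own 6-library means was 0.066, 0.068 and 0.017 (log2) in fasting libraries 1, 2 and 3, and 0.0025, -0.062 and -0.070 in ad libitum libraries 1, 2 and 3. Fasting library 3 and ad libitum library 1 were thus near each other, and the distance between diets came mostly from the other libraries. Leaving out ad libitum library 2 left 26 of 31 above 0 with a median of 0.084, and leaving out ad libitum library 3 left 29 of 31 with a median of 0.070.

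Within the core, the beta ring carries the cutting sites. Psmb7, its trypsin-like site, was at 92.5, 93.8 and 89.3 CPM in fasting libraries, against 85.7, 82.1 and 83.7 CPM in ad libitum libraries. All fasting libraries were higher, by 1.10-fold (log2 difference 0.13 with SE 0.05 and an edgeR adjusted p = 0.194). Psmb5, the chymotrypsin-like site that proteasome inhibitor drugs bind, was at 54.0, 53.1 and 49.7 CPM against 54.0, 48.5 and 46.0 CPM, and Psmb6, the caspase-like site, at 59.6, 64.0 and 59.0 CPM against 55.4, 58.8 and 59.1 CPM. For these sites the diets overlapped (log2 differences 0.08 and 0.08, edgeR adjusted p = 0.594 and 0.492). Of the sequence of Psmb5, 71.7% of words of 31 bases also occur in other annotated genes, among them the pseudogene Psmb5-ps, so its value is uncertain. The ring members without a cutting site, Psmb1, Psmb2, Psmb3 and Psmb4, had log2 differences of 0.12, 0.16, 0.16 and 0.14, each with no overlap between diets and an edgeR adjusted p from 0.196 to 0.225. Psmb10, which takes the place of Psmb7 in the immunoproteasome, was at 19.1, 21.7 and 19.2 CPM against 18.1, 18.1 and 18.0 CPM (log2 difference 0.15 with SE 0.07 and an edgeR adjusted p = 0.292). Its partners in that particle, Psmb8 and Psmb9, which the rule leaves out, had values of the other sign, -0.40 and -0.51 (edgeR adjusted p = 0.214 for both). In the alpha ring, which forms the gate, the 7 standard genes ran from 0.016 (Psma1) to 0.14 (Psma7), and Psma2, Psma5 and Psma6 showed no overlap. Psma5 shares 58.7% of its words with other genes and is uncertain.

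Before their start Psmb5 and Psmb6 hold the core of the antioxidant response element, the site through which the factors Nfe2l1 and Nfe2l2 are known to raise proteasome genes. Psmb3 and Psmb4, chosen after their values were seen, do not. Psmb1, Psmb2 and Psmb7 had no window, and Psmb10, whose diets were also apart, had a window without a match and is not shown. Whether the site bears on the values was not tested. The stretches before the start of Psmb3, Psmb4, Psmb5 and Psmb6 are shown here. Each runs 5′ to 3′ over the 250 bases before the RefSeq start on GRCm38.p6, another build than that of the counts, with matches on either strand to TGACNNNGC (Psmb5, Psmb6) or CCAAT (Psmb3) in capitals.
Psmb3 (chr11:97703184-97703433, plus strand): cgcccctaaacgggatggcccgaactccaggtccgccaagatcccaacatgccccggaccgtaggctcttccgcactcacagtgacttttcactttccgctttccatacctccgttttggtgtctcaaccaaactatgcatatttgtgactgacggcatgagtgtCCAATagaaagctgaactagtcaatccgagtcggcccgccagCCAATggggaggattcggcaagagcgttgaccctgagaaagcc
Psmb4 (chr3:94886959-94887208, minus strand): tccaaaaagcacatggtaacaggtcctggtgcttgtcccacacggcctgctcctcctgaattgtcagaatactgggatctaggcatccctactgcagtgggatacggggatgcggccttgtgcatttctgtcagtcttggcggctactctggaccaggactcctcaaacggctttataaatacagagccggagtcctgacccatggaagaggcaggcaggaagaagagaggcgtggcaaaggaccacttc
Psmb5 (chr14:54617996-54618245, minus strand): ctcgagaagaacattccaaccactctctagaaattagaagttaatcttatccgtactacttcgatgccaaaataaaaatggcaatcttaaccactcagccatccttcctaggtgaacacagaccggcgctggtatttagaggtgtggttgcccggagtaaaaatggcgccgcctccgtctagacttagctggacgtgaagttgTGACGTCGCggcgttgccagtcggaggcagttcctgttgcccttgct
Psmb6 (chr11:70525107-70525356, plus strand): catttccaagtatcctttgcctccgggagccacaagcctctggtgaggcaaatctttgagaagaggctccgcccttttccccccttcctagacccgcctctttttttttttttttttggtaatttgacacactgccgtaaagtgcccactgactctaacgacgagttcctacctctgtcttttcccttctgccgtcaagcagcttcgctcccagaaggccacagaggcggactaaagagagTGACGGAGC

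Windows ran from 250 bases before to 50 after each start. TGACNNNGC on either strand was found in 6 of 41 proteasome genes with a window, 8 of 37 Usp genes and 7 of 26 Ube2 genes, or 14.6%, 21.6% and 26.9%. It was in 14.0% of 27025 genes with a window and in 16.4% of the 13065 of them that were tested. The stricter TGACTCAGC, which is one form of it, was in 0, 1 (Usp10) and 0 of these genes and in 0.503% of all genes. CCAAT was in 15 of 41 proteasome genes and CACGTG in 5 of 41, or 36.6% and 12.2%, against 41.1% and 8.09% of all genes and 42.6% and 10.8% of tested genes. The letters were therefore about as frequent in proteasome genes as in all genes. A match is not a bound site, and a window without one says only that these letters are not in it.

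In the 19S particle the base ATPases unfold the substrate and the lid takes off its ubiquitin. Psmd1, the large scaffold of the base, was at 160, 161 and 158 CPM in fasting libraries, against 148, 132 and 146 CPM in ad libitum libraries. It was higher in all fasting libraries, by 1.13-fold (log2 difference 0.17 with SE 0.06 and an edgeR adjusted p = 0.176). Psmd13, a lid subunit, was at 57.8, 58.3 and 55.5 CPM against 53.8, 50.5 and 49.5 CPM (log2 difference 0.16 with SE 0.05 and an edgeR adjusted p = 0.172), again without overlap. Psmd4, a receptor for ubiquitin chains, was at 86.2, 89.9 and 83.2 CPM against 84.6, 80.8 and 81.6 CPM, and Psmd14, the lid enzyme that cuts ubiquitin off, at 59.1, 58.2 and 54.5 CPM against 56.4, 53.8 and 51.7 CPM. Both overlapped (log2 differences 0.07 and 0.09, edgeR adjusted p = 0.491 and 0.456). Psmd11, a lid subunit, was at 60.1, 59.0 and 58.4 CPM against 58.5, 56.5 and 62.4 CPM, a log2 difference of 0.0010 (SE 0.05) with a sign that depended on the setting. Psmc5, an ATPase, was the only gene with a value below 0 among the 31 standard subunit genes of the rule. It was at 130, 144 and 133 CPM against 145, 133 and 150 CPM (log2 difference -0.07 with SE 0.07 and an edgeR adjusted p = 0.604). Psmd2, the other scaffold of the base and the proteasome gene with the highest CPM, was at 217, 213 and 202 CPM against 203, 190 and 198 CPM (log2 difference 0.10 with SE 0.06 and an edgeR adjusted p = 0.396), with 31.6% of its words shared with other genes.

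**Figure D3:**
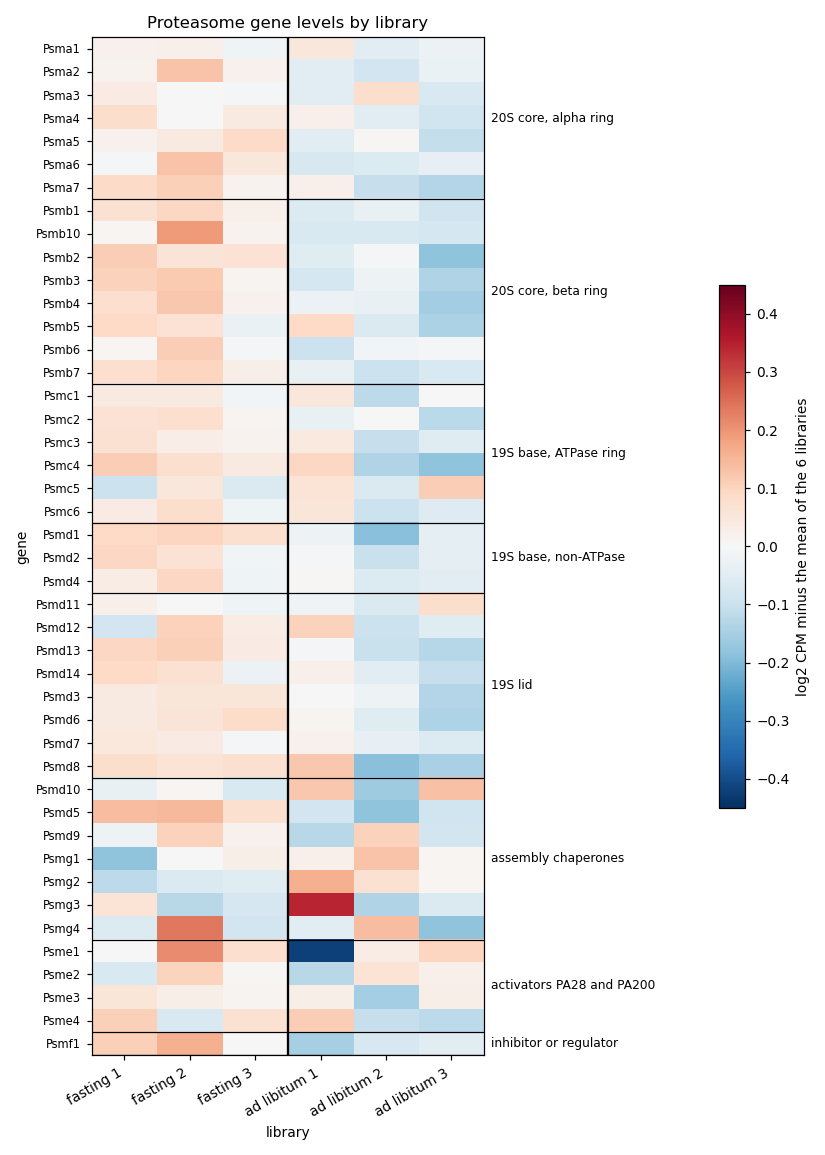
Level of each proteasome gene (rows, by part of the particle) in each library (columns), as log2 CPM minus the mean of the 6 libraries, from blue (lower) to red (higher). Most rows of the core and the 19S particle are redder in the fasting columns, while the rows of the assembly chaperones and activators are mixed. Psma8, Psmb11 and Psme2b, all under 1 CPM, are not drawn, nor are Psmc3ip and Psme3ip1.

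Among genes that act on the particle from outside, 3 of 7 assembly chaperone genes, 4 of 5 activator genes and Psmf1 were above 0, and whether these groups differ from the subunit genes was not tested. Psmd5, a chaperone that holds part of the 19S base during assembly, was at 64.7, 65.0 and 61.8 CPM in fasting libraries, against 55.3, 51.8 and 55.2 CPM in ad libitum libraries. It had the smallest p of the proteasome class, 1.18-fold higher under fasting in every library (log2 difference 0.24 with SE 0.05 and an edgeR adjusted p = 0.0798, DESeq2 adjusted p = 0.0153). Psmg2, a chaperone of the alpha ring, was at 10.8, 11.2 and 11.3 CPM against 13.1, 12.3 and 11.8 CPM, lower in all fasting libraries (log2 difference -0.16 with SE 0.07 and an edgeR adjusted p = 0.287). Its partner Psmg1 (-0.10), the chaperone gene Psmg3 (-0.11) and Psmd10 (-0.06), a chaperone of the base, were below 0 as well with overlapping diets, and Psmg4 (0.06) and Psmd9 (0.07) above. Psmf1, which encodes a protein that binds the core and links it to transport motors, was at 34.1, 35.3 and 31.7 CPM against 28.5, 30.1 and 30.6 CPM, with no overlap (log2 difference 0.18 with SE 0.06 and an edgeR adjusted p = 0.179). Psme1 and Psme2, the subunits of the interferon-inducible activator ring, had log2 differences of 0.18 (SE 0.14) and 0.03 (SE 0.08). Psme1 was at 26.7, 30.9 and 28.1 CPM against 19.9, 27.3 and 28.5 CPM, and ad libitum library 1 was the low value. Psme3, an activator of the nuclear proteasome, was at 0.06 (SE 0.06) and Psme4, a large single-chain activator, at 0.07 (SE 0.08), both with overlap. Psme2b, a close copy of Psme2 at 0.231 to 0.500 CPM against 0.620 to 0.783 CPM, shares 78.4% of its words with other genes, so its value of -0.91 (SE 0.32, edgeR adjusted p = 0.181) is uncertain.

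**Figure D4:**
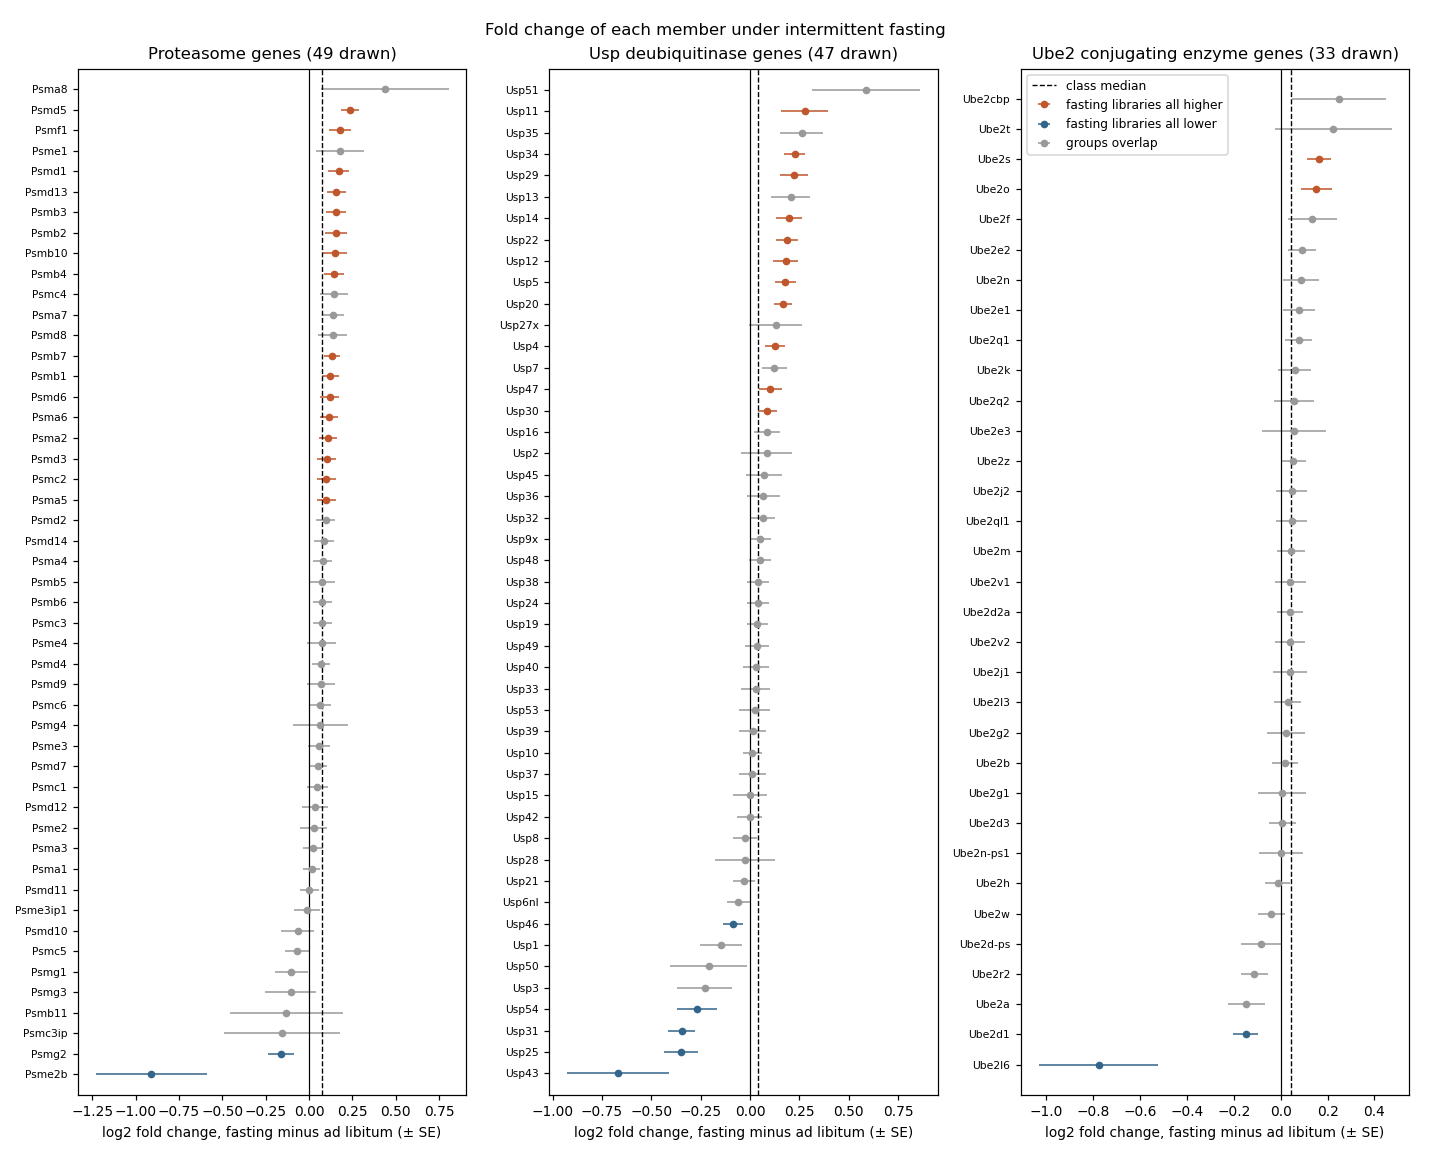
Log2 fold change of the member genes, fasting minus ad libitum, with its SE (1 Ube2 gene is not drawn), sorted within each class; colour shows whether the fasting libraries were all higher, all lower or overlapped the ad libitum libraries, and the dashed line is the class median. Most points lie within 0.2 of 0, and Usp31 and Usp25 lie near -0.35 on the far side from their class median.

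Usp genes included members past 0.2 in both directions. Usp31, which had the smallest p of the 130 genes, was at 116, 118 and 106 CPM in fasting libraries, against 152, 143 and 136 CPM in ad libitum libraries. It was lower in every fasting library (log2 difference -0.35 with SE 0.07 and an edgeR adjusted p = 0.0685, DESeq2 adjusted p = 0.00181), and edgeR called it without ad libitum library 1 (adjusted p = 0.0495). Usp25 was at 28.9, 36.4 and 31.5 CPM against 40.7, 41.7 and 40.9 CPM, again without overlap and with a wider spread among fasting libraries (log2 difference -0.35 with SE 0.09 and an edgeR adjusted p = 0.10). Its paralog Usp28 was at 19.2, 17.4 and 19.1 CPM against 19.2, 22.8 and 14.7 CPM (log2 difference -0.03 with SE 0.15), and whether the paralogs differ was not tested. Usp54 was at 127, 151 and 135 CPM against 157, 189 and 153 CPM (log2 difference -0.27 with SE 0.10 and an edgeR adjusted p = 0.205). Usp43, at 0.917 to 1.82 CPM against 1.99 to 2.31 CPM, and Usp46, at 87.9 to 91.4 CPM against 91.9 to 99.4 CPM, were the other Usp genes lower without overlap. Usp25, Usp46 and Usp54 had their highest fasting and highest ad libitum level in fasting library 2 and ad libitum library 2, as the summed oligodendrocyte markers had, and so did 26.7% of all genes lower without overlap.

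Other Usp genes were higher under fasting. Usp34, a regulator of Wnt signalling, was at 262, 245 and 259 CPM in fasting libraries, against 215, 217 and 223 CPM in ad libitum libraries, 1.17-fold higher with no overlap (log2 difference 0.23 with SE 0.05 and an edgeR adjusted p = 0.0943, DESeq2 adjusted p = 0.00477). Usp22, which removes ubiquitin from histones in the SAGA complex, was at 307, 283 and 289 CPM against 262, 251 and 259 CPM (log2 difference 0.19 with SE 0.06 and an edgeR adjusted p = 0.138). Usp5, which takes apart free ubiquitin chains, was at 215, 226 and 209 CPM against 188, 192 and 194 CPM (log2 difference 0.18 with SE 0.05 and an edgeR adjusted p = 0.138). All 3 were higher in each fasting library. Usp13, a relative of Usp5, had a like value with overlapping diets, 39.7, 37.7 and 36.4 CPM against 37.1, 28.3 and 33.2 CPM (log2 difference 0.21 with SE 0.10 and an edgeR adjusted p = 0.307). Usp20, at 81.0 to 85.4 CPM against 72.4 to 74.5 CPM, was higher without overlap (log2 difference 0.17 with SE 0.05 and an edgeR adjusted p = 0.124), and its paralog Usp33 was at 0.03 (SE 0.07) on the same scale. Usp29, which lies in an imprinted domain, Usp12, Usp4 and Usp11 were also higher in every fasting library, with log2 differences of 0.22, 0.18, 0.13 and 0.28 and edgeR adjusted p of 0.154, 0.171, 0.237 and 0.250.

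Usp14 is the Usp enzyme bound to the proteasome, where it trims ubiquitin from substrates. It was at 172, 168 and 164 CPM in fasting libraries, against 155, 136 and 148 CPM in ad libitum libraries, without overlap (log2 difference 0.20 with SE 0.06 and an edgeR adjusted p = 0.154). Annotated exons of Thoc1 on the other strand cover 26% of its exons, and it is not known here whether counting used strand. The same limit holds for Ube2l3, Psmd9 and Usp33, with 28.6%, 25.5% and 24.4% of their exons covered by genes on the other strand.

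Usp9x, Usp8, Usp30, Usp15 and Usp33 were grouped here for ties to mitochondria or alpha-synuclein, and had log2 differences from -0.02 to 0.09. Usp13, at 0.21 (SE 0.10) as given above, is not in this group, so the range does not cover every Usp gene that may have such ties. Usp9x, reported to take ubiquitin off alpha-synuclein and the Usp gene with the highest CPM, was at 425, 413 and 419 CPM in fasting libraries, against 395, 404 and 413 CPM in ad libitum libraries (log2 difference 0.05 with SE 0.05 and an edgeR adjusted p = 0.612). Usp8, reported to do the same in endosomes, was at 109, 117 and 111 CPM against 120, 108 and 115 CPM (log2 difference -0.02 with SE 0.06 and an edgeR adjusted p = 0.854). Diets overlapped for both. Usp30, a deubiquitinase of the mitochondrial outer membrane that opposes mitophagy, was at 56.0, 56.7 and 55.7 CPM against 53.4, 54.4 and 50.6 CPM, without overlap (log2 difference 0.09 with SE 0.05 and an edgeR adjusted p = 0.366). Usp15, a deubiquitinase that acts in TGF-beta signalling, was at 99.3, 90.7 and 94.4 CPM against 106, 86.2 and 91.8 CPM, with a log2 difference of -0.0003 (SE 0.09). Usp2, a partner of the circadian clock, was at 53.2, 37.4 and 43.9 CPM against 45.4, 42.3 and 39.2 CPM (log2 difference 0.08 with SE 0.13 and an edgeR adjusted p = 0.754). Usp51, the Usp gene with the lowest CPM, was at 0.971 to 1.5 CPM against 0.614 to 1.05 CPM and overlapped.

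**Figure D5:**
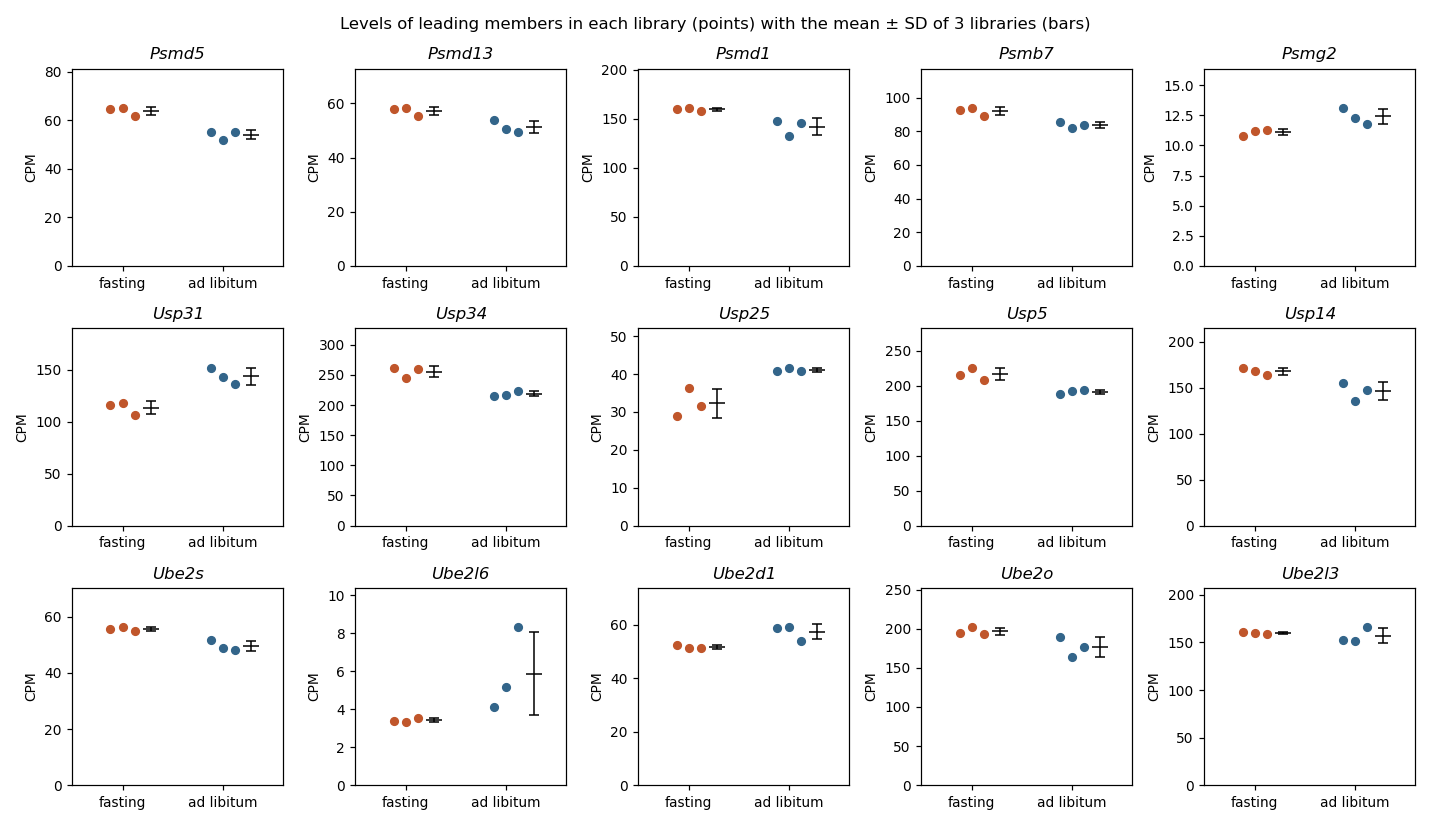
CPM (vertical axes, from 0) of 15 genes in each of the 3 fasting libraries (left, orange) and 3 ad libitum libraries (right, blue), with the mean ± SD of each diet. Usp31 and Usp25 lie lower in all fasting libraries, Psmd5 and Usp34 higher, and in Ube2l6 the ad libitum points spread from 4.11 to 8.31 CPM while the fasting points lie within 3.33 to 3.54 CPM.

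Among Ube2 genes 31 of 34 were within 0.2 of 0 and 5 (14.7%) were without overlap, where 27.5% of all genes were. Ube2l6, the E2 of the ubiquitin-like modifier ISG15, had the difference of largest size in the class. It was at 3.39, 3.33 and 3.54 CPM in fasting libraries, against 4.11, 5.16 and 8.31 CPM in ad libitum libraries. The fasting libraries were all lower and nearly equal, and ad libitum library 3 was the highest (log2 difference -0.78 with SE 0.26 and an edgeR adjusted p = 0.161). The log2 fold change was -0.44 without ad libitum library 3, and -0.98 with an edgeR adjusted p of 0.0440 without ad libitum library 1. The E1 of the same modifier, Uba7, was at 2.52, 2.54 and 2.67 CPM against 3.87, 3.47 and 4.06 CPM (log2 difference -0.56 with SE 0.13 and an edgeR adjusted p = 0.0841), and the protease that removes ISG15, Usp18, which the rule leaves out, had a log2 difference of -0.31 (SE 0.32, edgeR adjusted p = 0.625) with overlap. None of the 3 passed the test. All 15 microglia markers were lower under fasting as well, with their highest sum in ad libitum library 2 (712 CPM, against 661 CPM in ad libitum library 3). The red blood cell genes overlapped between diets and, like Ube2l6, were highest in ad libitum library 3. The part of either list in these values was not tested.

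Among E2s for ubiquitin itself, Ube2s, which extends chains for the anaphase-promoting complex, was at 55.6, 56.3 and 55.0 CPM in fasting libraries, against 51.8, 49.0 and 48.2 CPM in ad libitum libraries (log2 difference 0.16 with SE 0.05 and an edgeR adjusted p = 0.144). Ube2d1, a general E2 that works with many ligases, was at 52.3, 51.3 and 51.3 CPM against 58.9, 59.0 and 54.0 CPM (log2 difference -0.15 with SE 0.05 and an edgeR adjusted p = 0.187). Neither overlapped, and their signs were opposite. Of the relatives of Ube2d1, Ube2d2a was at 0.04 (SE 0.06) and Ube2d3, the Ube2 gene with the highest CPM, at 0.0066 (SE 0.06), from 239 to 255 CPM against 234 to 251 CPM, and whether they differ from Ube2d1 was not tested. Ube2o, a large enzyme that acts as both E2 and E3, was at 195, 202 and 193 CPM against 189, 164 and 177 CPM, higher in every fasting library (log2 difference 0.15 with SE 0.07 and an edgeR adjusted p = 0.256). Ube2r2 (-0.11), Ube2a (-0.15), Ube2e2 (0.09) and Ube2q1 (0.08) had edgeR adjusted p from 0.331 to 0.501 and overlapping diets. Ube2t, at 0.409 to 0.532 CPM against 0.385 to 0.445 CPM, had the lowest level.

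Some E2s of general use or of signalling chains had small values. Ube2l3, which serves ligases with a catalytic cysteine, was at 161, 160 and 159 CPM in fasting libraries, against 153, 152 and 166 CPM in ad libitum libraries (log2 difference 0.03 with SE 0.06 and an edgeR adjusted p = 0.802). Ube2n had a log2 difference of 0.09 (SE 0.08), and its inactive partners Ube2v1 and Ube2v2 of 0.04 each (SE 0.06 for both), with edgeR adjusted p from 0.563 to 0.759. Diets overlapped for all of them, and 59.9% of the words of Ube2v1 are shared, mainly with Gm20431, which overlaps it. Ube2m, an E2 of NEDD8, was at 112, 114 and 104 CPM against 109, 102 and 109 CPM (log2 difference 0.04 with SE 0.06 and an edgeR adjusted p = 0.725).

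Levels can be set beside each other only per length. They are given per kilobase of the longest transcript in GENCODE M21, an approximation because the lengths used by Salmon are not known here. The 31 standard 26S subunit genes of the rule had a median of 47.7 CPM per kb under fasting and 45 CPM per kb ad libitum. They ran from 20.8 (Psmd11) to 103 (Psmc5) CPM per kb under fasting and from 20.8 (Psmd11) to 109 (Psmc5) CPM per kb ad libitum. Assembly chaperone genes lay lower, with medians of 7.79 and 8.18 CPM per kb. Ube2 genes had medians of 26.8 and 25.2 CPM per kb, with Ube2v1 highest at 81.6 and 79.3, and Usp genes 11.6 and 11.5 CPM per kb, with Usp5 highest at 67.4 and 59.6. The order of these medians was the same under both diets.

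Other genes of the pathway gave 1 call among 107 tested, where 0.497% of all genes tested were called. Ufd1, which with Nploc4 guides the unfolding ATPase p97 (Vcp) to ubiquitin-tagged proteins, rose to 74.1, 70.5 and 74.2 CPM in fasting libraries, against 56.0, 58.2 and 56.5 CPM in ad libitum libraries (log2 difference 0.36 with SE 0.05 and an edgeR adjusted p = 0.0422). The call was lost in 5 of 6 fits that left out 1 library, with an adjusted p of 0.253, 0.0644 and 0.287 without fasting libraries 1, 2 and 3 and of 0.0648 and 0.118 without ad libitum libraries 2 and 3. Its log2 difference stayed within 0.34 and 0.38 in these fits. Of 11 shuttle factor and p97 genes it was the 1 that passed, and Ubqln4, a shuttle factor, was at -0.26 (SE 0.05, edgeR adjusted p = 0.0685). None of 4 ubiquitin genes, 8 E1 genes, 11 other proteasome subunits and regulators, 32 other deubiquitinases and 41 ligases passed, with medians of -0.011, 0.0081, -0.038, -0.0003 and 0.028. Ubb, a main source of ubiquitin, was at 1170, 1180 and 1160 CPM against 1150, 1070 and 1010 CPM (log2 difference 0.12 with SE 0.07 and an edgeR adjusted p = 0.352). Uba6, an E1, was at 28.8, 30.7 and 28.5 CPM against 35.2, 37.7 and 37.3 CPM (log2 difference -0.32 with SE 0.06 and an edgeR adjusted p = 0.0638). Nfe2l2, one of the factors that act on the antioxidant response element, was at -0.57 (SE 0.14, edgeR adjusted p = 0.0950), and Adrm1, a ubiquitin receptor of the 19S particle, at 0.18 (SE 0.05, edgeR adjusted p = 0.117). Among deubiquitinases of other families, Mindy1 was at -0.27 and Josd2 at -0.45 (edgeR adjusted p = 0.0798 and 0.108). Among ligases, Fbxo32, a ligase of muscle atrophy, was at -0.68 and Fbxo7, a Parkinson's disease gene, at -0.27 (edgeR adjusted p = 0.0685 and 0.114).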

How the data were processed

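Polyadenylated RNA of substantia nigra was sequenced in 6 libraries, 3 per diet, and columns were tied to libraries by the names in the labels. The authors deposited a table of estimated counts per gene, as whole numbers not scaled between libraries, so rounding changed no value. The submitters' processing notes name Salmon, DESeq2 1.40.2 and the build GRCm39 (mm39). Per the labels' protocols the kit keeps strand. Neither the annotation release nor the strand setting of the counting is stated there.

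edgeR 4.0.16 under R 4.3.3 was fitted to the whole table: filterByExpr (19109 of 19251 genes kept), TMM scaling, a quasi-likelihood test with robust shrinkage, two-sided, no covariate, Benjamini-Hochberg adjustment over all genes tested, called below 0.05. Levels are CPM after TMM. The SE was taken as the absolute log2 fold change over the root of F. An exact permutation of 3 against 3 cannot go below p = 0.1. DESeq2 1.42.0 and limma-voom 3.58.1 were alternatives. The fits were tested on simulated counts with known changes of 1.5-fold or more. Smaller changes, such as those of most members here, were not simulated, so that test says nothing of how often they would be found. No pair of libraries within a diet agreed within sampling noise (chi-square over its degrees of freedom at least 8.28). Shared words of 31 bases and transcript lengths come from GENCODE M21 (GRCm38) and promoters from RefSeq tables of GRCm38.p6, in which 104 of the 130 genes had a window.

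The classes and lists were chosen with earlier results of these data known. Named were members with edgeR calls (there were 0), per class up to 5 above and 5 below 0 of smallest p at a mean of at least 1 CPM, the highest and lowest by level, and a fixed list of 23. Of other pathway lists, called genes and the 2 of smallest p were named. Psmb1, Psmb2, Psmb3, Psmb4, Psma1, Psma2, Psma5, Psma6, Psma7, Psmg4, Psmd9, Psme2b, Psme3, Psme4, Usp28, Usp33, Usp29, Usp12, Usp4, Usp11, Ube2d2a, Adrm1, Sem1 and Ubqln4 and the genes left out by the rule were named as parts of a group or after their values were seen. Some listed genes are not reported here by name, though counts and medians include them.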

Additional observations from a re-analysis of the deposited data

How the results depend on the processing

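With all libraries kept, edgeR with other scalings, filters or shrinkage and limma-voom called 0 of the 130 genes, while DESeq2 called 5 Usp genes and 1 proteasome gene. Over all genes, edgeR called 95 and DESeq2 1395, limma-voom 32, library size only 10, no robust shrinkage 9 and the replicate block 285. Leaving out each library in turn gave 0 to 1 calls among Ube2 genes, 0 to 2 among Usp genes and 0 to 1 among proteasome genes, all without ad libitum replicate 1 (Psmd8 and Usp35 higher, Ube2l6 and Usp31 lower). Unadjusted p below 0.05 then held for 0 to 5 Ube2 genes, 6 to 17 Usp genes and 1 to 9 proteasome genes, and for 2452 to 5267 of all genes tested. Over all genes 0 to 1187 were called. Class medians kept their sign, and ran from 0.0019 to 0.0803 in Ube2, 0.0159 to 0.072 in Usp and 0.0641 to 0.1082 in proteasome genes. Of the other pathway genes, where alternatives were chosen after seeing the data, edgeR called 1 (Ufd1) and DESeq2 10. Over all genes these tools called 0.497% and 7.4%. Among the other pathway genes limma-voom, library size only, no robust shrinkage and the replicate block called 0, and fits without 1 library 0 to 6. Of 753 values of the 54 named members, 724 kept sign and side of the threshold, 8 passed it and 21 changed sign, in 9 members no larger than 0.11 in log2 size. With all libraries, Psmd11 was -0.0044 at a mean count of at least 50, and Usp15 was 0.0030 under DESeq2, 0.0044 under limma-voom, 0.0028 with DESeq2 size factors, 0.0040 by library size, 0.0003 with no filter and 0.0043 with the replicate block. Leaving out libraries, the log2 fold change ran from -0.0363 to 0.0413 in Psmd11, -0.0283 to 0.0602 in Psme2, -0.2023 to 0.0570 in Psmg3, -0.0298 to 0.0281 in Ube2d3, -0.0057 to 0.0857 in Ube2v1, -0.0234 to 0.0698 in Ube2v2, -0.0706 to 0.0908 in Usp15, -0.0648 to 0.1992 in Usp2 and -0.0688 to 0.0106 in Usp8. The causes were not tested. Deviations of same-numbered libraries had correlations of 0.206, -0.0386 and -0.106 over genes, where those of libraries with unlike numbers ran from -0.136 to 0.194. These few values cannot decide whether the numbers pair libraries. The labels state no pairing, so the main fit used none. With the replicate block 0 members were called, and 7 proteasome, 13 Usp and 3 Ube2 genes had an unadjusted p below 0.05, as had 3921 of all 19109 genes tested. With 3 libraries a diet and a median SE of 0.060 to 0.066 in the classes, no single member passed the test at these sizes.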
